A study of Drosophila melanogaster with 3 samples.

Results

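The genes described here encode the subunits of the mitochondrial oxidative phosphorylation complexes in the nuclear genome of Drosophila melanogaster. They were chosen by symbol, as protein-coding genes of Ensembl release 115 whose names start with ND-, UQCR-, COX and a digit, ATPsyn, or Sdh followed by a letter from A to D. The rule gave 87 of the 13945 protein-coding genes on the arms X, 2L, 2R, 3L, 3R and 4. Of these, 24 carry the symbol of another subunit followed by L, and are its paralogs. The other 63 are called subunit genes below, with 34 in complex I, 4 in complex II, 6 in complex III, 8 in complex IV and 11 in complex V. No assembly factor met the rule, and subunits with other names (blw, levy, cype, ox, RFeSP and Cyt-c1) are given apart.

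The oxidative phosphorylation system sits in the inner mitochondrial membrane. Complexes I and II pass electrons from NADH and succinate to ubiquinone, complex III passes them on to cytochrome c and complex IV to oxygen, and complex V uses the resulting proton gradient to make ATP. Most subunits are encoded in the nucleus by genes that nearly all cells use, while many of the L paralogs are expressed mostly in the Drosophila testis.

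D (Dichaete) is a Sox protein of the SoxB class that binds DNA through an HMG domain. Chromatin immunoprecipitation with sequencing (ChIP-seq) was done on whole Drosophila embryos of mixed sex, aged 0 to 14 hours, from a stable transgenic line that carried D with GFP at its C-terminus. The chromatin was sonicated, with fragments of 200 to 800 as the labelled size range, and pulled down with an anti-GFP antibody. The study had 3 biological replicates of this single group. Each list was made against a control alignment, and the labels do not say whether the control embryos carried the transgene. The signals of all embryonic cell types were mixed. The peak lists hold no expression values, so the tissue could not be checked against markers.

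The main list held the 5047 peaks that the authors kept by irreproducible discovery rate (IDR), a measure of how well replicates repeat a peak. They were the 5047 highest of a list of 30000 peaks and background regions called on the 3 replicates together, here the pooled list. Each replicate had a list of its own with 30000 regions. The signal value of a region is the authors' own height over control. Its scale is unstated, so it is used here to order regions within a list. Depth is unknown. Replicate 1 stood apart from replicates 2 and 3. Among the 1744 IDR summits that lay within 500 bp of start sites and belonged to no subunit gene, 38.6% had a match within 200 bp among the 5047 highest regions of replicate 1, against 88.0% in replicate 2 and 83.9% in replicate 3. Beyond 23 Mb on 3L, a limit set after the data were seen, replicate 1 listed 903 regions, replicates 2 and 3 listed 1 each, the pooled list 11 and the IDR list 0.

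At the start sites of 10 genes, all of them subunit genes and none a paralog, an IDR summit lay within 500 bp. These were ND-ASHI, ND-MWFE, ND-51, ND-24, ND-42 and ND-SGDH of complex I, COX7B and COX5A of complex IV, and ATPsynE and ATPsynCF6 of complex V. In 9 of the 10 the summit lay between a start site of the gene and a start site of a neighbour that is transcribed in the opposite direction. The stretches of 6 are shown because they carry the highest summit (ND-ASHI), the summit that all 3 replicates held (ND-51), the summits closest to a Sox core among those between genes (ATPsynCF6, ND-SGDH and COX7B) and a summit without a Sox core (ND-42). They are from RefSeq Release 6 of the genome, the build of the dm6 lists, and are written on the strand of the subunit gene. Capitals mark the Sox core ACAAT, or ATTGT where it lies on the other strand. For ND-ASHI the stretch is 201 bases centred on the summit (chrX:6679278-6679478, minus strand), and for the others it is all bases between the facing starts: ND-51 (chr2L:6062758-6062988, minus strand), ATPsynCF6 (chr3R:23356065-23356277, minus strand), ND-SGDH (chr3L:12138585-12138867, minus strand), COX7B (chr3L:17425218-17425476, plus strand) and ND-42 (chr3R:22027481-22027708, plus strand).
ND-ASHI: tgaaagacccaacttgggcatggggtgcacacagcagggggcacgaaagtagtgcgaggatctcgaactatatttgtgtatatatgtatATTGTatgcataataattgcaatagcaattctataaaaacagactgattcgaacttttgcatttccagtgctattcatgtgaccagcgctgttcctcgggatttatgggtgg
ND-51: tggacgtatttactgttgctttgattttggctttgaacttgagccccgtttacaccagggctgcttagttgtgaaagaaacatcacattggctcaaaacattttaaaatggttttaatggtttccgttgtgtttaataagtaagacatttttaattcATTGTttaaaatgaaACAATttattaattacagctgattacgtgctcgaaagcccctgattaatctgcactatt
ATPsynCF6: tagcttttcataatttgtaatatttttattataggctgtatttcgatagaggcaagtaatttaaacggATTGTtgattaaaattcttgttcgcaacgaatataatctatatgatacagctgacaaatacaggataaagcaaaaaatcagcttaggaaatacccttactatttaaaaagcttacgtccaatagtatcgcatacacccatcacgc
ND-SGDH: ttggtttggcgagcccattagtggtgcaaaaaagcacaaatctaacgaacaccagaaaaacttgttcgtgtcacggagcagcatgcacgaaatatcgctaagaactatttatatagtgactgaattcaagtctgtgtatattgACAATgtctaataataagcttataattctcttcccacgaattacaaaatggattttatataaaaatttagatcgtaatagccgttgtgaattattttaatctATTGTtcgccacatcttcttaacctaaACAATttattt
COX7B: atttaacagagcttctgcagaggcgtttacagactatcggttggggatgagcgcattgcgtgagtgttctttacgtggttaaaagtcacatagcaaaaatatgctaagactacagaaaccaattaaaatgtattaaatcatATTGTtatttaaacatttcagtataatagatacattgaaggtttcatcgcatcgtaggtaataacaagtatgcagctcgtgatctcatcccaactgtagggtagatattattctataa
ND-42: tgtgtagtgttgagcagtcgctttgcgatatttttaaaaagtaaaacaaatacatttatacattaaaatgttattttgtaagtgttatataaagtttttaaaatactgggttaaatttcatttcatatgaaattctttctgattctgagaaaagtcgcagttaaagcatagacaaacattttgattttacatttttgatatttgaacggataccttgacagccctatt
The summit is base 101 for ND-ASHI, base 130 for ND-51, base 66 for ATPsynCF6, base 133 for ND-SGDH, base 158 for COX7B and base 121 for ND-42. The GC content of the 6 stretches ran from 26.8% for ND-42 to 42.3% for ND-ASHI.

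The first question was how many of these genes carry D-GFP at their own start sites. An IDR summit lay within 500 bp of an own start in 10 of the 87 genes, or 11.5%, where 15.3% of all protein-coding genes had one. Among the 63 subunit genes the share was 15.9%, close to that of all genes, and among the 24 paralogs it was 0. By complex, the counts were 6 of 34 in complex I, 0 of 4 in complex II, 0 of 6 in complex III, 2 of 8 in complex IV and 2 of 11 in complex V. Each of the 10 genes had a single such summit. ND-ASHI was nearest to the limit of 500 bp from inside, with its summit 260 bp from the start, and the paralog COX7AL2 was nearest from outside, at 524 bp.

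In complex I, the highest summit lay at ND-ASHI, which encodes an accessory subunit of the membrane arm. It lay on chrX:6679230-6679532 with a signal value of 736.7, rank 619 of 5047. The value there was 295.6 in replicate 2 and 275.4 in replicate 3, and replicate 1 listed no region within 200 bp. ND-ASHI faces Fum1, the gene of fumarase, an enzyme of the citric acid cycle. The summit was 260 bp from the start of ND-ASHI and 262 bp from that of Fum1, in an intron of a longer Fum1 transcript, so that both genes share it.

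ND-51 encodes the subunit that binds NADH and FMN, where electrons enter complex I. Its peak, chr2L:6062631-6063086, had a signal value of 405.8 and rank 1712. It was the only one of the 10 with a region in every replicate, with 119.7 in replicate 1, 105.5 in replicate 2 and 152.1 in replicate 3. These regions ranked 779, 2905 and 2066 in their lists. The neighbour across the 231 bases shown above is CG13994.

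ND-24, the partner of ND-51 in the NADH-binding module, had the only summit that lay downstream of the nearest own start. The peak, chrX:17631934-17632389, had a signal value of 382.8 and its summit was 73 bp into the gene, in an untranslated exon. The value was 107.5 in replicate 2 and 178.4 in replicate 3, with no region in replicate 1. The neighbour is corolla, a gene of the synaptonemal complex, and 41 bases separate the facing starts.

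ND-MWFE, ND-42 and ND-SGDH encode other accessory subunits of complex I. The ND-MWFE peak, chr2R:13158422-13158591, had a signal value of 470.8, with 159.9 in replicate 2 and 80.0 in replicate 3. Its summit was closer to the start of TppII, a tripeptidyl peptidase gene, than to that of ND-MWFE, at 77 against 144 bp. The ND-42 peak, chr3R:22027373-22027828, had a signal value of 299.7, with 129.9 in replicate 2 and 85.7 in replicate 3. ND-42 faces Cchl, which encodes the lyase that attaches haem to cytochrome c. The ND-SGDH peak, chr3L:12138507-12138962, had a signal value of 254.6, with 98.0 in replicate 2 and 63.2 in replicate 3, where it ranked 8388. None of these 3 had a region in replicate 1.

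Complex IV, cytochrome c oxidase, had the lowest 2 of the 10 summits. At COX7B, on chr3L:17425147-17425602, the signal value was 243.3, with 76.2 in replicate 2 and 139.0 in replicate 3. COX7B faces Sec3, a gene of the exocyst. At COX5A, on chr3R:11819285-11819740, the value was 214.1, with 73.1 in replicate 2 and 102.5 in replicate 3. The neighbour of COX5A is glo, which encodes an RNA-binding protein, and the summit lay in an intron of a longer COX5A transcript.

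In complex V, the ATP synthase, the bound genes encode parts of the membrane sector and the peripheral stalk. ATPsynE, with a peak on chr3R:14326701-14327156, had a signal value of 322.7, with 86.3 in replicate 2 and 116.3 in replicate 3, and its summit was 18 bp from the start, the shortest distance of the 10. ATPsynCF6, with a peak on chr3R:23355984-23356439, had a signal value of 289.3, with 74.4 in replicate 2 and 150.9 in replicate 3. Its summit was nearer to the start of Sec13, a gene of the COPII coat and the nuclear pore, at 66 against 148 bp. Neither gene had a region in replicate 1.

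Replicates 2 and 3 each listed a region within 200 bp of all 10 summits, and replicate 1 did so at ND-51 alone. Counting only the 5047 highest regions of each list, 9 were matched in replicate 2, 7 in replicate 3 and 1 in replicate 1. Among the other 1744 start-site summits, the whole lists of replicates 2, 3 and 1 matched 98.6%, 98.1% and 41.2%. Their 5047 highest regions matched 88.0%, 83.9% and 38.6%. The order of the 10 genes differed between replicates 2 and 3, although ND-ASHI was highest in both. Replicate 2 had ND-MWFE and ND-42 next, and replicate 3 had ND-24 at 178.4 and ND-51 at 152.1. In height the 10 summits lay in the middle of the IDR list, with signal values from 214.1 to 736.7 and a median of 311.2, against a median of 345.8 for the other 1744 start-site summits, which reached 4534.2. The plot of signal values by gene shows these values for each replicate.

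**Figure D1:**
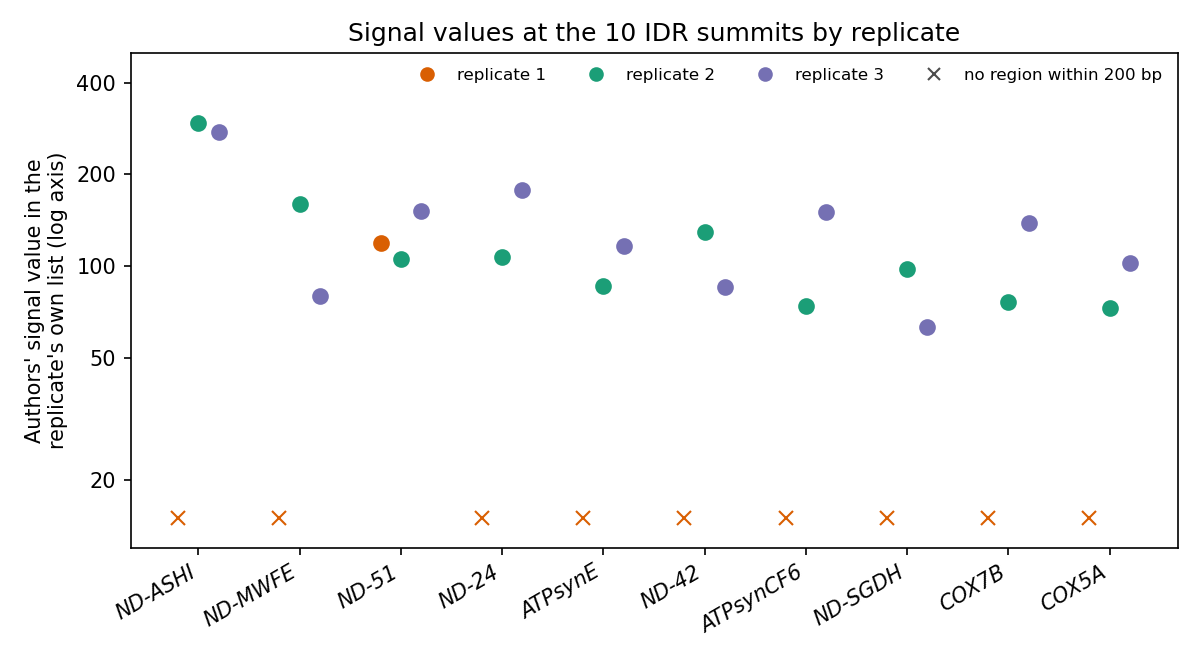
The authors' signal value in each replicate's own list (vertical log axis) at the IDR summits of 10 subunit genes (horizontal axis, ordered by pooled signal). Points are the highest region within 200 bp of the summit, 1 colour per replicate, and a cross marks a list with no region there; replicates 2 and 3 have points at all 10 genes and replicate 1 at ND-51 only.

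Measured along the gene from the nearest own start site, the summits lay between -260 and 73 bp of the start, with a median of -105.0 bp, and 9 were upstream of that start. In 9 the summit fell between the facing starts, which were 178 to 521 bases apart. These starts can be alternative ones, and 3 of the 9 summits lay in an intron of a longer transcript, that of ND-ASHI in Fum1, that of ND-MWFE in TppII and that of COX5A in COX5A itself. The own start was the nearest start site for 7, while ND-MWFE, ND-SGDH and ATPsynCF6 had summits nearer to the neighbour. All 10 summits also lay within 500 bp of a start of the neighbour, at 66 to 262 bp. None of them can therefore be assigned to 1 of the facing genes.

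**Figure D2:**
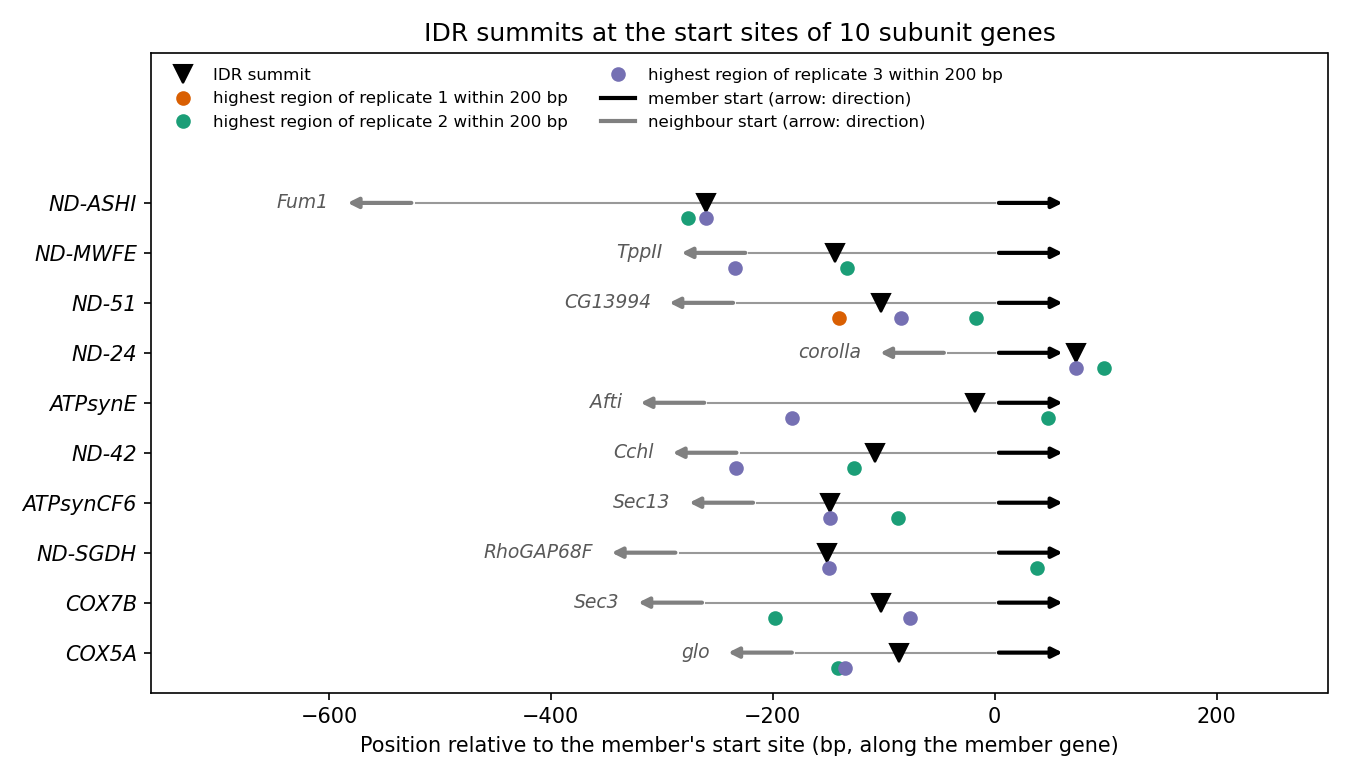
Map of the 10 promoters, each drawn to scale along its subunit gene (horizontal axis, bp from the start site). Black arrows mark the starts of subunit genes and grey arrows those of neighbours (arrow length is not gene length), triangles the IDR summits and dots the highest region of each replicate within 200 bp; 9 of 10 triangles lie between the facing starts, and that of ND-24 lies 73 bp inside the gene.

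All 10 bound genes had a neighbour facing away with its start within 1000 bp, here called a head-to-head neighbour. This split was added after the data were seen. Such a neighbour was present at 40 of the 63 subunit genes (63.5%) and at 4 of the 24 paralogs, against 36.2% of all genes. Among the subunit genes with a head-to-head neighbour 10 of 40, or 25.0%, were bound at the start, against 26.0% of all genes with such a neighbour. Among the 23 subunit genes without one none was bound, against 9.18% of all such genes. Of all genes with an IDR summit at an own start, 61.7% had a head-to-head neighbour.

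The second question was what the lists show below the IDR threshold, where regions are weaker and less certain. In the whole lists, regions at the starts of subunit genes were widespread in replicates 2 and 3 and scarce in replicate 1. In the list of replicate 2, 53 of the 63 subunit genes (84.1%) had a region within 500 bp of an own start, against 47.1% of all genes. In replicate 3 it was 44 (69.8%), against 46.2% of all genes, and in replicate 1 it was 4 (6.35%), against 18.5%. In the pooled list it was 28 (44.4%), against 38.9%. Both replicates 2 and 3 listed a region at 42 subunit genes (66.7%), against 39.7% of all genes, and at least 1 of them did at 55 (87.3%), against 53.7%.

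Genes with a region were also counted by complex, and the complexes hold only 4 to 34 genes each. All 8 subunit genes of complex IV had a region in replicate 2 and in replicate 3, and in complex V all 11 had one in replicate 2 and 9 in replicate 3. Complex I had 27 and 19 of 34, complex II 3 and 3 of 4, and complex III 4 and 5 of 6. Over all genes the shares were 47.1% in replicate 2 and 46.2% in replicate 3. ND-AGGG and ND-MLRQ of complex I and UQCR-11 of complex III had a region in neither. They lie beyond 23 Mb on 3L, where each of these replicates listed a region at 1 of 36 genes. The part of this in the counts by complex was not tested. No list held a region within 500 bp of the starts of 5 subunit genes (7.94%, against 37.2% of all genes by replicate lists). These were SdhA, the flavoprotein of succinate dehydrogenase, and ND-75, ND-18, ND-B16.6 and ND-B18 of complex I, of which ND-75 is the largest core subunit. ND-B16.6 faces kdn, the gene of citrate synthase.

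**Figure D3:**
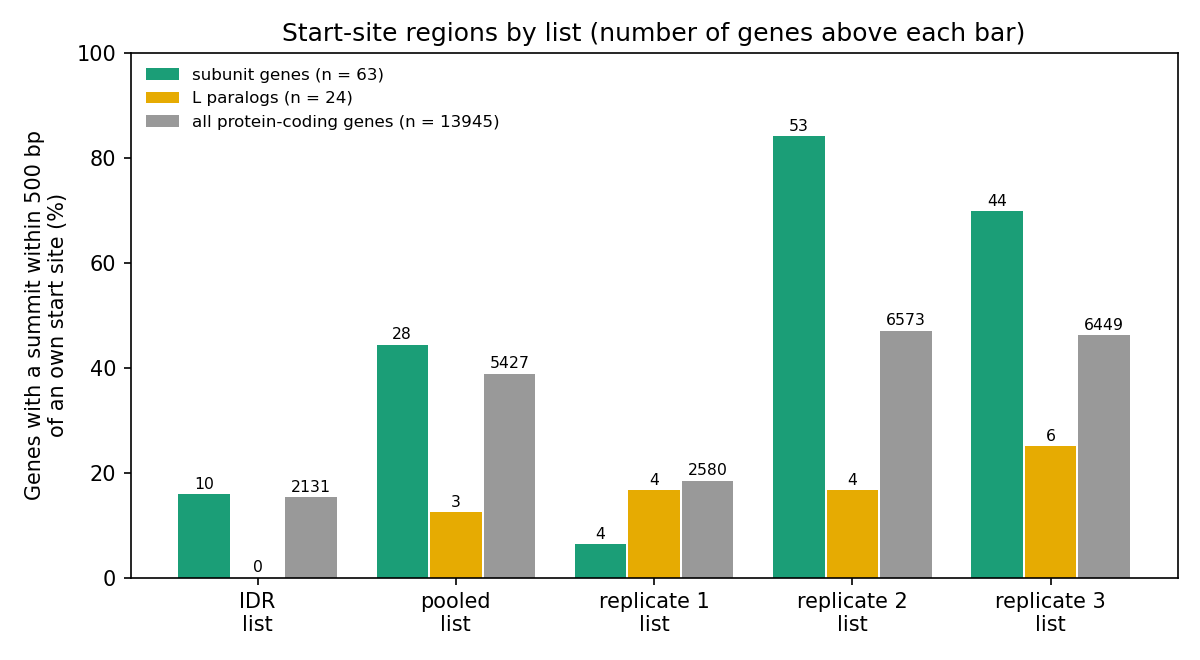
Percent of genes with a summit within 500 bp of an own start site (vertical axis) in each deposited list (horizontal axis), with the number of genes above each bar, for subunit genes, their L paralogs and all protein-coding genes. Subunit genes stand above all genes in replicates 2 and 3 (84.1% and 69.8%) and below them in replicate 1 (6.35%).

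These regions ranked lower in their lists than the start-site regions of all genes. In replicate 2 the highest region at the starts of the 53 subunit genes had a median signal value of 40.1 (range 22.3 to 295.6) and a median rank of 12333 of 30000, against 53.8 and 8160 for all genes with a region. In replicate 3 the 44 genes had a median of 59.1 (range 25.5 to 275.4) and a median rank of 9304, against 63.9 and 8263. Within the 5047 highest regions the share of subunit genes came close to that of all genes, 13 of 63 (20.6%) against 16.0% in replicate 2 and 8 of 63 (12.7%) against 15.3% in replicate 3. Between these 2 replicates the signal values had a Spearman rho of 0.63 over the 42 subunit genes with a region in both, given as a description since these genes share libraries and control.

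In replicate 2, these regions were most frequent around the 5′ end of the gene. Summits fell in the 100 bp before the 5′ end in 27.0% of the subunit genes and in the first 100 bp of the gene in 25.4%, against 9.62% and 7.57% of all genes. In replicate 3 the highest shares were 17.5%, from 300 to 201 bp and from 100 to 1 bp before the 5′ end, against 7.98% and 8.93% of all genes. The profile of replicate 1 was flat by comparison, with 4.76% as its highest share, from 200 to 101 bp before the 5′ end, against 3.14% of all genes. That share is 3 genes, ND-51, ND-AGGG and UQCR-11. Of these, ND-AGGG and UQCR-11 lie beyond 23 Mb on 3L, where replicate 1 listed far more regions than the other replicates.

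**Figure D4:**
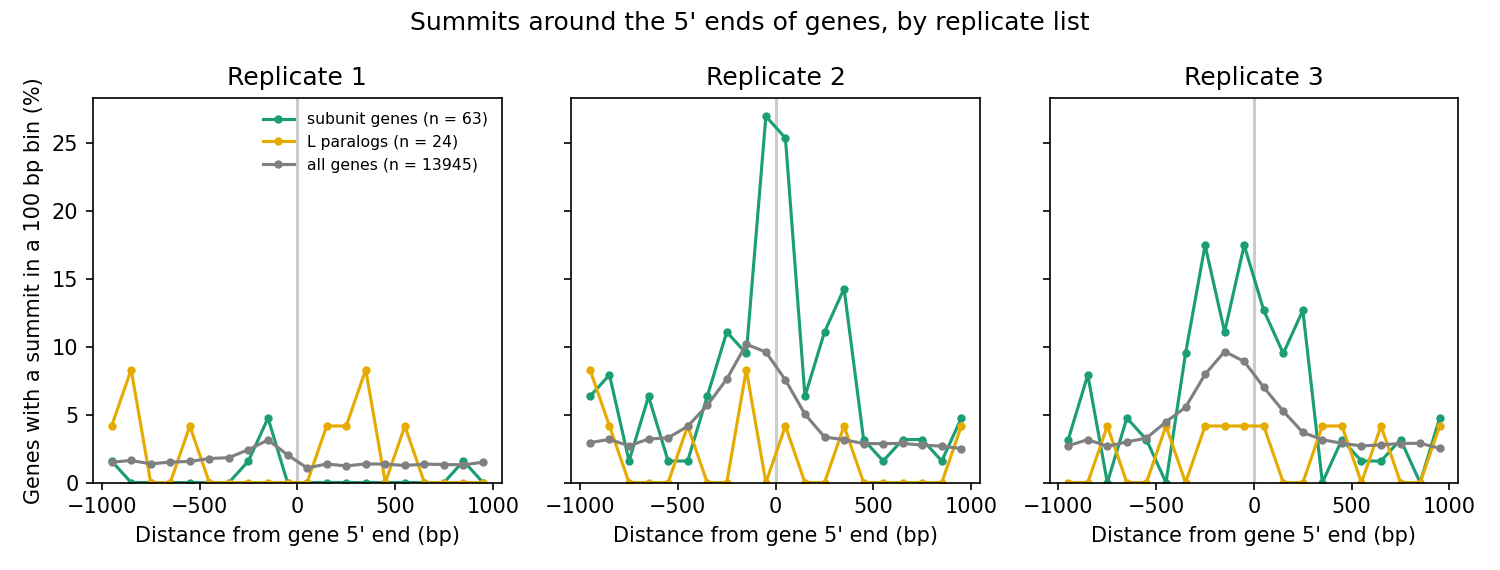
Percent of genes with a summit (vertical axis) in each 100 bp bin of distance from the gene's 5′ end (horizontal axis, negative upstream), for the lists of replicates 1, 2 and 3. Lines are subunit genes, L paralogs and all protein-coding genes; the line of the subunit genes reaches 27.0% in replicate 2, 17.5% in replicate 3 and 4.76% in replicate 1.

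The threshold of the IDR list fell among these genes. COX5A, at 214.1, was the lowest subunit gene above it. Just below it lay ND-23, an iron-sulphur subunit of complex I, with a pooled signal value of 178.2 and 38.0 and 80.1 in replicates 2 and 3. ATPsyngamma, the rotor shaft of the ATP synthase, followed with 175.2 in the pooled list and 104.6 and 59.3 in replicates 2 and 3. In all, 18 subunit genes and 3 paralogs had a start-site region in the pooled list and none in the IDR list. The 3 were UQCR-6.4L at 103.3, ND-B14.5AL at 61.0 and COX7AL2 at 55.1. Of the 87 genes, 35.6% had a start-site region in the pooled list and 11.5% in the IDR list. The shares of all protein-coding genes were close to these, 38.9% and 15.3%.

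Of the 4 subunit genes with a start-site region in replicate 1, 3 had none in replicates 2 and 3. Apart from ND-51, its 3 subunit genes were UQCR-11 of complex III at 59.4 (rank 2005), ND-AGGG of complex I at 50.1 (rank 2668) and ND-MLRQ at 42.2 (rank 3974). ND-MLRQ is placed in complex I by its symbol, although its mammalian counterpart has been assigned to complex IV. Replicates 2 and 3 listed no region at any of these 3 genes (4.76% of the subunit genes, where 9.1% of all genes had a region in replicate 1 alone), and all 3 lie beyond 23 Mb on 3L. There, replicate 1 listed a region at the starts of 25 of 36 protein-coding genes (69.4%), and replicates 2 and 3 at 1 gene each. The part of that difference between lists in the values of the 3 genes was not tested.

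The third comparison set each paralog beside its subunit. In 24 such pairs, which include those with levy, cype and sun as subunits, an IDR summit lay at the subunit alone in 6 and at the paralog alone in 0. These 6 were ND-24 with ND-24L, ND-51 with ND-51L1 and with ND-51L2, ATPsynCF6 with ATPsynCF6L, and levy with COX6AL and with COX6AL2. In replicate 2 a region lay at the subunit alone in 17 pairs, at both in 4, at neither in 3 and at the paralog alone in 0. Replicate 3 had 16, 5, 2 and 1 of these, and the pair with a region at the paralog alone was UQCR-11L, at 25.9. Over the 24 paralogs, 4 (16.7%) had a start-site region in replicate 1, 4 in replicate 2 and 6 in replicate 3, and 16 (66.7%) had none in any replicate, against 7.94% of the subunit genes and 37.2% of all genes. The 4 in replicate 1 were ATPsynepsilonL, COX6CL, ND-B14.5AL and SdhCL, with signal values from 22.7 to 26.4. COX7AL2 had the highest value of a paralog, 142.5 in replicate 3. This region matched the IDR summit 524 bp from its start, where replicate 2 listed none within 200 bp. The highest region of replicate 2 at the starts of COX7AL2 was another one, at 50.3.

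The wider surroundings of the genes were then read. An IDR summit lay in the span from 2 kb before to 2 kb after the gene in 24 of the 87 genes (27.6%), 22 of them subunit genes and 2 paralogs, against 30.4% of all genes. These genes are short, with a median of 1178 bp for subunit genes and 744 bp for paralogs against 2166 bp for all genes, so their spans hold less sequence. In 14 of the 24 the span held a summit while the start did not. Of all protein-coding genes, 4239 had a summit in the span and 2131 had one at an own start. Over all 24 genes, 23 summits lay outside 500 bp of an own start, of which 17 were nearest to a start of another gene and 12 lay within 500 bp of one.

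The highest of all was near SdhD, which encodes a membrane anchor of succinate dehydrogenase. It had a signal value of 1710.0, rank 75 of 5047, and was matched in each replicate, at 542.5, 545.2 and 623.4. The summit lay 2404 bp from the start of SdhD and 143 bp from that of PTPMT1, in an intron of Hrd3. No other summit of the 14 genes had a match in replicate 1.

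Other summits of complex II also lay at neighbours. The summit in the span of SdhA had a signal value of 242.9 and lay 24 bp from a start of cer, and that of SdhB had 268.9 and lay 142 bp from a start of CG15237. In complex III, the span of UQCR-14 held summits of 227.5 and 222.6 near starts of CG32576 and caz, and that of UQCR-C1 one of 223.6 near Dph2. In complex I, ND-B14.7 had 517.4, ND-B22 339.2, ND-MNLL 208.0 and ND-B17.2 204.0. The summit of ND-B22 lay 60 bp from a start of CG31855. COX7C of complex IV had a summit of 438.7 in an intron of oys. In complex V, ATPsyndelta had 481.6 and 215.6, both inside Ypel, and ATPsynD had 213.0 and 210.3. Among the paralogs, COX7AL2 had 718.4 and 213.6 and UQCR-6.4L had 459.0 in an intron of Mipp1. For COX7AL2, COX7C, ND-B14.7 and UQCR-6.4L a summit was nearer to their own start than to any other, and that of ND-MNLL was 884 bp from starts of both ND-MNLL and CG45089.

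Sequence motifs were counted on either strand from 250 bp before to 50 bp after the 5′ end of each gene, as a description. The Sox core ACAAT was in this window at 46 of 63 subunit genes (73.0%), 17 of 24 paralogs (70.8%) and 61.3% of all genes. Within 100 bp of the summit it was present at 7 of the 10 bound genes (70.0%), against 51.1% of the other 1744 start-site summits. Its centre was 5 bp from the summit at ATPsynCF6, 9 bp at ND-ASHI, 13 bp at ND-SGDH and 14 bp at COX7B, which the stretches shown above make visible. It was 30 bp away at ND-51, 47 bp at ATPsynE and 70 bp at ND-24, and within 100 bp it was not found at ND-MWFE, ND-42 and COX5A. ACAAAG, another form of Sox site that does not contain ACAAT, stood in the windows of 7 subunit genes (11.1%), against 18.3% of all genes. None of the 10 bound genes had it in the window.

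Other motifs were also counted, among them some of the promoters of broadly used genes. GGTCACAC, the core of a motif of such promoters in Drosophila, was found at 15 subunit genes (23.8%), 1 paralog (4.17%) and 7.7% of all genes. CAGCTG, an E-box, was found at 19 subunit genes (30.2%), 2 paralogs (8.33%) and 17.7% of all genes, and it stands in the stretches of ND-51 and ATPsynCF6 shown above. TATCGATA, the site of the DREF protein, was at 9 subunit genes (14.3%), 0 paralogs and 9.36% of all genes. GAGAG, bound by GAGA factor, was at 10 subunit genes (15.9%), 10 paralogs (41.7%) and 29.7% of all genes. CAGGTAG, bound by Zelda, was at 2 subunit genes (3.17%) and 1.64% of all genes. Neither the palindromic site of Ewg, the fly relative of mammalian nuclear respiratory factor, nor CCGGAAG, the site of Ets proteins, was in the window of any of the 87 genes, and they were in 0.724% and 1.09% of all windows. The windows of the subunit genes had a median GC content of 34.3%, against 38.0% for all genes. None of these motifs can lie inside another of them, though matches can overlap in part.

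Genes that work beside these subunits were read from a list of 40 symbols, of which 39 were in the annotation. An IDR summit lay at the start of 10 of the 39, where 15.3% of all genes had one. Among subunits and carriers with other names it was 3 of 9. These were Cyt-c-d, a cytochrome c gene, at 1363.3, blw, the alpha subunit of complex V, at 442.0 and levy of complex IV at 192.3. Among assembly factors it was 1 of 5, CIA30, a factor for complex I, at 1259.2. In the citric acid cycle and pyruvate dehydrogenase it was 5 of 14, with Idh3g at 1075.7, Fum1 at 736.7 through the summit shared with ND-ASHI, Pdhb at 405.7, mAcon1 at 324.0 and Ogdh at 254.2. Among genes of mitochondrial DNA and its regulators it was 1 of 11, mtSSB, which encodes the mitochondrial single-stranded DNA-binding protein, at 455.7. Replicate 1 had a region at 5 of these 10 genes, Cyt-c-d at 282.9, blw at 123.2, CIA30 at 411.3, Idh3g at 239.7 and Ogdh at 67.2, where among the 10 subunit genes it had 1. Its whole list matched 41.2% of the 1744 start-site IDR summits outside the subunit genes, so 5 of 10 is near the usual share.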

How the data were processed

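D-GFP ChIP-seq of whole embryos (1 group of 3 replicates) was read from peak lists on the dm6 build. The authors' deposited signal values (column 7 of each list) give the height of a region against a control alignment, per the deposited file lists, on a scale that is not stated. The tools for alignment and peak calling were, like the cut-off behind the IDR list, not given in the sources used here. Lists on dm3 were not used. A summit was the start of a region plus its summit offset. Start sites were those of all protein-coding transcripts in Ensembl release 115. All regions lay within the arm lengths of RefSeq Release 6, and all 87 genes had ATG at the first codon there. A summit counted at a start within 500 bp, and as matched in a replicate within 200 bp.

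No test was made, since there was 1 group, and shares are set beside those of all genes. Genes named are all with a start-site summit or with summits only elsewhere in their span, those beside the threshold, the 3 highest per replicate, paralogs of bound subunits and neighbours sharing a summit. Other named genes were chosen after their values were seen. The genes, lists and motifs were chosen with earlier results of these data known. Read depth is unknown, and no 2 replicate lists shared an interval. The alternatives were other distances, spans and thresholds, matching in the replicates and leaving out each replicate. The counting was tested on simulated data. Python 3.11.15, scipy 1.17.1 and matplotlib 3.10.9 were used.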

Additional observations from a re-analysis of the deposited data

How the results depend on the processing

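The count of 10 genes with an IDR summit at an own start was 9 within 250 bp (11.5% of all genes). Within 1000 bp it was 14 (18.2%), and by the 5′ end alone it was 10 (13.1%). With the 9 subunits and carriers of other names added, Cyt-c-d among them, it was 13. Where the gene's own start had to be the nearest it was 7. It was 31 in the whole pooled list (38.9% of all genes), 5 in the upper 50% of IDR peaks (9.06%) and 1 with recovery in all 3 replicates (4.7%). With each replicate left out it ran from 1 to 6. Without replicate 1 it was 6 (11.7% of all genes), and without replicate 2 or 3 it was 1, ND-51 (4.9% and 5.14%). The count of 24 by span became 3 in the gene body (11.8%), 39 with flanks of 5 kb (43.7%), 13 in the upper 50% of IDR peaks (19.5%) and 2 with recovery in all 3 replicates (11.3%), and ran from 2 to 17 with each replicate left out. Without replicate 1 it was 17 (24.8%), and without replicate 2 or 3 it was 2 (11.9% and 12.1%). No list was remade, so leaving out a replicate means recovery in both others. Recovery here means a match within 200 bp among the 5047 highest regions of a replicate's list. In their whole lists, replicates 2 and 3 each had a match for all 10 start-site summits.

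Within 100 bp of the summit, GGTCACAC was at 0 of the 10 bound genes, against 3 by promoter window, and CAGGTAG and GAGAG at 0 against 1 each. Among replicate lists, cuts added after the data were seen took the 53 subunit genes of replicate 2 to 34 in the upper 50% of the list (34.4% of all genes) and 13 in its 5047 highest regions (16.0%), and the 44 of replicate 3 to 32 (33.5%) and 8 (15.3%). Both cuts kept the 4 subunit genes of replicate 1 (12.4% and 7.59% of all genes). The cause of the changes in the other counts was not tested beyond the fewer regions each setting keeps. The median signal value ran from 273.0 to 405.8, the latter being ND-51 alone, the 1 gene left without replicate 2 or 3. The head-to-head count was 10 within 500 bp and 7 within 250 bp. Depth is unknown, so a region missing from the list of replicate 1 does not show that D-GFP was absent there. No paired analysis was possible because there was 1 group.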
